A study of Mus musculus with 33 samples.

Results

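The genes described here are 38 cell cycle and proliferation genes of the mouse, taken from a fixed list of names out of the 54146 genes counted in the series. They were split by role into 11 DNA replication genes (Mcm2, Mcm3, Mcm4, Mcm5, Mcm6, Mcm7, Pcna, Rrm1, Rrm2, Tyms and Gins2), 21 mitosis genes (Mki67, Top2a, Cdk1, Ccna2, Ccnb1, Ccnb2, Birc5, Bub1, Bub1b, Cdc20, Aurka, Aurkb, Plk1, Kif11, Kif20a, Cenpe, Cenpf, Tpx2, Ube2c, Nusap1 and Prc1) and 6 further members (Ccne1, Ccne2, Tk1, Hmgb2, Stmn1 and Uhrf1). Every one of the 38 names matched exactly 1 gene in the files. They were followed through 33 RNA-seq libraries of sorted microglia, the resident macrophages of the brain, in 10 groups of C57BL/6 mice that were all labelled female. At 3 months there were WT (n = 4) and germline IRF8KO (n = 4), a second WT group (n = 3) beside Batf3KO (genotype Batf3-/-, n = 3), and 2 groups of the conditional IRF8cKO experiment. In that experiment IRF8flox mice (n = 3) and IRF8floxCx3cr1CreERT2 mice (n = 4), called flox and Cre below, both received tamoxifen on 5 days starting at postnatal day 12. The Cre recombinase is driven by the Cx3cr1 promoter, so Irf8 is lost after birth and in cells that use this promoter. In germline IRF8KO mice the gene is disrupted in every cell, the bone marrow included. The Cre mice carried a YFP reporter for sorting according to the series description. At 9 months there were WT, IRF8KO, 5xFAD (genotype 5xFAD/WT) and 5xFAD/IRF8KO mice (n = 3 each), where 5xFAD is a transgenic line that deposits amyloid in the brain. IRF8 is a transcription factor needed for monocyte and microglia development, and Batf3 encodes a transcription factor known for its role in dendritic cells. No label says whether the libraries of a group came from separate animals, so p-values measure the spread between libraries, which may be technical.

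A dividing cell copies its DNA in S phase and separates the copies in mitosis, and different genes are switched on for each task. Mcm2 to Mcm7 encode the ring-shaped helicase that opens the DNA, Gins2 a subunit that activates it, Pcna the sliding clamp of the polymerases, and Rrm1, Rrm2 and Tyms enzymes that make the nucleotides. These genes are classic targets of E2F factors and some are kept at a low level in cells that do not divide. Mitosis genes are switched on later through the DREAM and MuvB complexes with B-Myb and FoxM1, at promoters with a CHR element (cell cycle genes homology region) and CCAAT boxes, and are silent in resting cells. Adult microglia renew slowly, whereas immature granulocytes and red cell precursors of the bone marrow divide often. In bulk RNA a smaller number of dividing cells and less RNA per dividing cell cannot be told apart.

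Promoter sequences of 7 members are shown here as examples of the motifs that were more frequent in windows of mitosis genes (CHR) or of replication genes (E2F). They were taken from RefSeq promoter windows on build GRCm38.p6, which run from 250 bases before to 50 bases after a gene's start, and 30 of the 38 members had an entry. The motifs searched, on both strands and without mismatch, were TTTGAA (CHR), CCAAT, and TTTCGCGC or TTTGGCGC (E2F). The 160 bases before the start are printed 5′ to 3′ in the direction of the gene, with every match in capitals.
Cdc20: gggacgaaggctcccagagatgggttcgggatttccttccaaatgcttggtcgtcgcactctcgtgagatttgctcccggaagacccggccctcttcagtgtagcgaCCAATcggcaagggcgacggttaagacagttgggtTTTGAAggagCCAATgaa
Top2a: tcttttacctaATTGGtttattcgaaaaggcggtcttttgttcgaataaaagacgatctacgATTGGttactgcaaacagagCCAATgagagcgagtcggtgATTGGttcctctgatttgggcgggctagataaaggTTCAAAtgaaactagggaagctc
Cdk1: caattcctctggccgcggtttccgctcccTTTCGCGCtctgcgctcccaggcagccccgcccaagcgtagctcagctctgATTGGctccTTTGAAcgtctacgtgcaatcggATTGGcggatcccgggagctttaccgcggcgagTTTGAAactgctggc
Kif11: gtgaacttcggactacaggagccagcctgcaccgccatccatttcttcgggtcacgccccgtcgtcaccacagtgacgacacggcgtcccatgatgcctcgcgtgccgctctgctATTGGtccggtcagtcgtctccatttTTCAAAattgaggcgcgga
Hmgb2: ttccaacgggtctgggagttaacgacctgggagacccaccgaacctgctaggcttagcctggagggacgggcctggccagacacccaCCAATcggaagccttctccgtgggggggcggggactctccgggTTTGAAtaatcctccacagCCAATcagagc
Mcm5: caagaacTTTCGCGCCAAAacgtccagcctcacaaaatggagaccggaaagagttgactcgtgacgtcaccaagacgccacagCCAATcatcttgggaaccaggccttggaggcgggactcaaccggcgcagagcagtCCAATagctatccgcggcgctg
Mcm6: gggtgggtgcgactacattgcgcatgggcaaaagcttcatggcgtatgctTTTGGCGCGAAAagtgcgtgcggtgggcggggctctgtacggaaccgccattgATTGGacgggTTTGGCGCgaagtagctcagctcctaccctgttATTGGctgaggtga
The stretches lie at chr4:118437344-118437503 (Cdc20, minus strand), chr11:99024190-99024349 (Top2a, minus), chr10:69352913-69353072 (Cdk1, minus), chr19:37376222-37376381 (Kif11, plus), chr8:57511683-57511842 (Hmgb2, plus), chr8:75109349-75109508 (Mcm5, plus) and chr1:128359706-128359865 (Mcm6, minus). Cdc20, Top2a, Kif11 and Hmgb2 show CHR and CCAAT matches and no E2F match, and Cdk1 holds all 3 kinds. Mcm5 and Mcm6 have E2F and CCAAT matches and no CHR match, and in each of these promoters a TTTCGCGC and a TTTGGCGC on opposite strands overlap. Over all windows of the list, CHR was found in 13 of 18 mitosis windows and in 1 of 10 replication windows (Mcm2), against 17.9% of all 32851 promoter windows. Prc1 had 2 overlapping windows that held the same CHR match, so it was counted in both. Mcm7 had 2 windows among the 10 of replication genes. An E2F match was found in 4 of 10 replication windows (Mcm3, Mcm5, Mcm6 and Mcm7) and 1 of 18 mitosis windows (Cdk1), against 0.813% of all windows. Among the mitosis genes with an entry, those without a CHR match were Ccnb1, Birc5, Bub1, Nusap1 and Cenpe. The first 4 rose in IRF8KO at 9 months, and Cenpe was not called. Ccna2, Aurkb, Kif20a and Tpx2 had no entry and were not searched. Whether the changes below follow the motif was not tested. CCAAT was common everywhere, in 9 of 10 replication and 16 of 18 mitosis windows against 37.4% of all. These matches describe the sequence and are neither sites nor causes.

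Depth ranged from 605376 to 18357762 counts in genes per library, with the shallowest library in 9-month WT, where 1 read weighs more than 1 CPM, the count scaled to a library of 1000000 reads in genes. Irf8 averaged 244 ± 40.9 CPM (SD, n = 4) in 3-month WT and 113 ± 29.5 (n = 4) in IRF8KO, and 637 ± 48.1 against 77.3 ± 61.8 (n = 3 each) at 9 months. Irf8 reads thus remained in IRF8KO, and their source was not tested. Batf3 was 24.6 ± 1.98 in its WT and 0.487 ± 0.043 CPM in Batf3KO (n = 3 each). Irf8 in Cre replicate 1 was 1129 CPM, at the level of the flox libraries (968 to 1240 CPM), against 365 to 520 in the other 3 Cre libraries, so this library goes against its label. Homeostatic microglia markers summed to 3672 to 11274 CPM in the 10 germline knockout libraries and 11871 to 22045 in their 3-month WT controls, against 28565 or more elsewhere. Among the markers of other cells, several lists of blood cell and of brain cell genes separated all 14 of these libraries from the other 19. Oligodendrocyte genes summed to at least 3215 CPM in the 14 and at most 522 elsewhere, and astrocyte genes to at least 527 and at most 99.2. Monocyte genes summed to at least 208 CPM against at most 8.36, and T and NK cell genes to at least 12.1 against at most 2.43. Red cell genes summed to 9079 to 158174 CPM, against at most 1876 in the other 19 libraries, and late-granule neutrophil genes to 3616 to 83498 CPM, against at most 33.4. Y-linked transcripts exceeded 10 CPM in 16 of the 33 libraries, although all are labelled female.

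Across the 10 groups, the replication genes had a sizeable summed level in every group and the mitosis genes in 4 of the 10. Summed over the 11 replication genes, the level per library was 231 to 367 CPM in 9-month WT and 5xFAD, 242 to 304 in the Batf3KO experiment and 127 to 194 in the conditional experiment. The 21 mitosis genes together made only 28.7 to 57.0 CPM in 9-month WT and 5xFAD, 9.58 to 16.7 in the Batf3KO experiment and 17.98 to 74.7 in the conditional experiment. In IRF8KO they reached 473 to 1790 CPM at 3 months and 1533 to 2265 at 9 months, and in 5xFAD/IRF8KO 1410 to 2227. The 3-month WT controls of IRF8KO stood apart from the other 2 control groups of that age, with mitosis sums of 109 to 544 CPM, and overlapped IRF8KO. All sums use CPM of gene counts without further scaling.

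The ratio of the mitosis sum to the replication sum shows the same division library by library. It was 0.0583 ± 0.0101 (SD, n = 3) in the WT controls of Batf3KO, 0.117 ± 0.0157 (n = 3) in 9-month WT and 0.337 ± 0.0570 (n = 3) in flox. In the 3-month WT controls of IRF8KO it was 1.23 ± 0.432 (n = 4), close to the 1.31 ± 0.274 (n = 4) of IRF8KO of the same age. At 9 months it was 5.14 ± 3.60 (n = 3) in IRF8KO, with single libraries at 1.14, 8.10 and 6.19, and 1.89 ± 0.878 (n = 3) in 5xFAD/IRF8KO. Per kilobase of exons, the members with the highest mean levels in 9-month WT were Mcm3 (15.5 CPM per kb) and Pcna (14.3), whereas in 9-month IRF8KO they were Hmgb2 (158), Ube2c (117), Stmn1 (110), Ccnb2 (105) and Cdc20 (87.6).

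**Figure D1:**
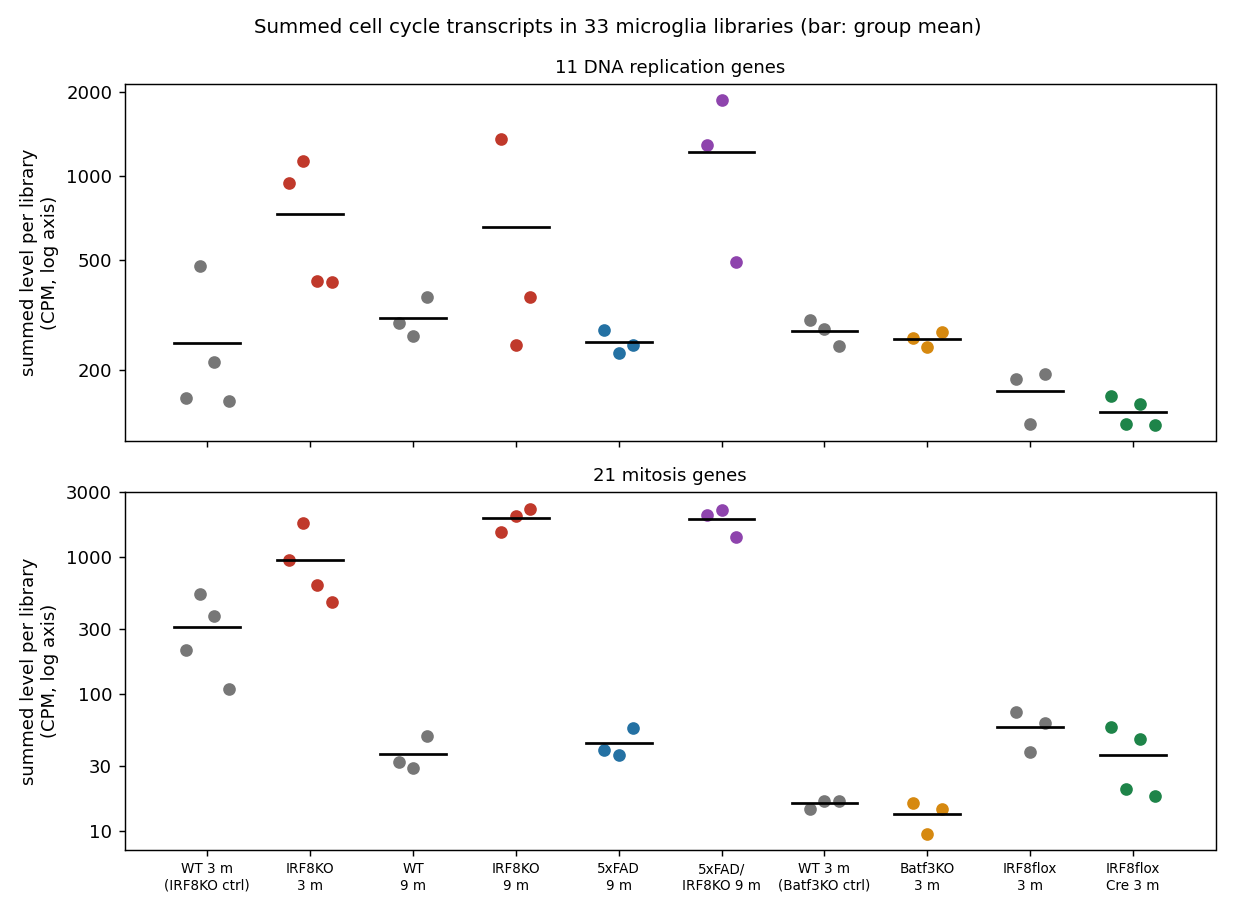
Summed level in CPM (log axis) of the 11 DNA replication genes (top) and the 21 mitosis genes (bottom) in each of 33 libraries by group, with bars at group means. Mitosis sums lie at 1410 CPM or above in every 9-month germline knockout library and at or below 74.7 CPM in all groups other than germline knockouts and their 3-month WT controls, while replication sums of all groups share a narrower range.

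Loss of Irf8 at 9 months was accompanied by a rise of nearly the whole mitosis list. Of the 21 mitosis genes, 20 rose in IRF8KO against WT (edgeR's quasi-likelihood test, adjusted p under 0.05) and none fell, and only Cenpe, a kinetochore motor, was not called (log2 fold change 3.66 ± 1.72 SE, adjusted p = 0.132). Over all 38 members 26 rose, against 19.6% of all 14604 genes tested in that comparison that were called higher. The median log2 fold change was 5.61 for the mitosis list (5.77 from group sums with at least 3 counts a group) and 0.25 for all genes tested.

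The kinase and cyclin genes that drive entry into mitosis were among the clearest. Cdk1, the kinase at the core of mitotic entry, was at 4.29, 1.45 and 2.43 CPM in the WT libraries and at 168, 65.1 and 88.0 in IRF8KO. Every IRF8KO library lay above every WT library, and Cdk1 rose by a log2 fold change of 5.18 ± 0.64 (SE, adjusted p = 0.00011). Its partner Ccnb2, a B-type cyclin, went from 1.23, 0.485 and 1.21 to 148, 207 and 126 CPM (log2 fold change 7.30 ± 0.48, adjusted p = 1.5e-06). Ccnb1, the other B-type cyclin, was at 0.766, 0.97 and 0 CPM in WT and at 204, 142 and 242 in IRF8KO, with log2 8.05 ± 0.53 (adjusted p = 1.53e-06). Ccna2, the cyclin of S phase and early mitosis, rose from 2.18 ± 0.427 to 89.6 ± 45.6 CPM (SD, n = 3 each). For these 4 genes every knockout library lay above every WT library. Ccnb1 and Ccnb2 each have a same-name pseudogene in the annotation, so their counts are less certain.

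The genes that end mitosis rose as well. Ube2c, the ubiquitin-conjugating enzyme of the anaphase-promoting complex, had the largest fold change of the 38 members: 0.307, 1.45 and 0 CPM in WT and 182, 378 and 349 in IRF8KO (log2 9.00 ± 0.84, adjusted p = 1.47e-05). Cdc20, an activator of the same complex, rose from 2.09 ± 1.58 to 164 ± 42.3 CPM. These WT levels rest on 5 reads for Ube2c and 18 for Cdc20 over 3 libraries, so the size of such folds is loosely bounded. Birc5 (survivin) and Aurkb, both of the chromosomal passenger complex, rose by log2 7.57 ± 0.63 and 4.61 ± 0.93. Aurka and its activator Tpx2, which build the spindle, rose by log2 4.84 ± 0.74 and 5.07 ± 0.67, and the spindle motor Kif11 by 7.79 ± 0.89.

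Several mitosis genes varied widely between the knockout libraries, and Mki67, Prc1 and Bub1 were each almost absent in a single one. Mki67, which coats mitotic chromosomes and is the usual marker of dividing cells, was at 0.391, 46.9 and 41.0 CPM in the 3 IRF8KO libraries and at 0.613, 0.485 and 1.21 in WT. It passed the test (log2 5.41 ± 1.79, adjusted p = 0.0401), but replicate 1 lay below all WT libraries. Prc1, which bundles the spindle midzone, showed 0.13, 119 and 56.7 CPM, and Nusap1, a spindle microtubule binder, 14.6, 195 and 93.1. Bub1, a checkpoint kinase, was at 78.6, 63.6 and 0 CPM in IRF8KO and rested on 2 reads in WT, which gives a ratio of 217 with an exact 95% interval from 60.0 to 1797 that covers counting error only. Top2a, the topoisomerase that untangles chromosomes, was at 13.2, 245 and 148 CPM against 2.15, 1.45 and 3.64, and its groups did not overlap (log2 5.94 ± 1.02, adjusted p = 0.00114). Over the list, 23 of the 38 members had all 3 knockout libraries above all 3 WT libraries, against 27.3% of all genes tested. When single libraries were left out in turn, 19 to 25 of the 38 members were called, and 18 were called each time: Aurka, Aurkb, Birc5, Bub1b, Ccna2, Ccnb1, Ccnb2, Cdc20, Cdk1, Hmgb2, Kif11, Kif20a, Nusap1, Plk1, Stmn1, Top2a, Tpx2 and Ube2c.

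**Figure D2:**
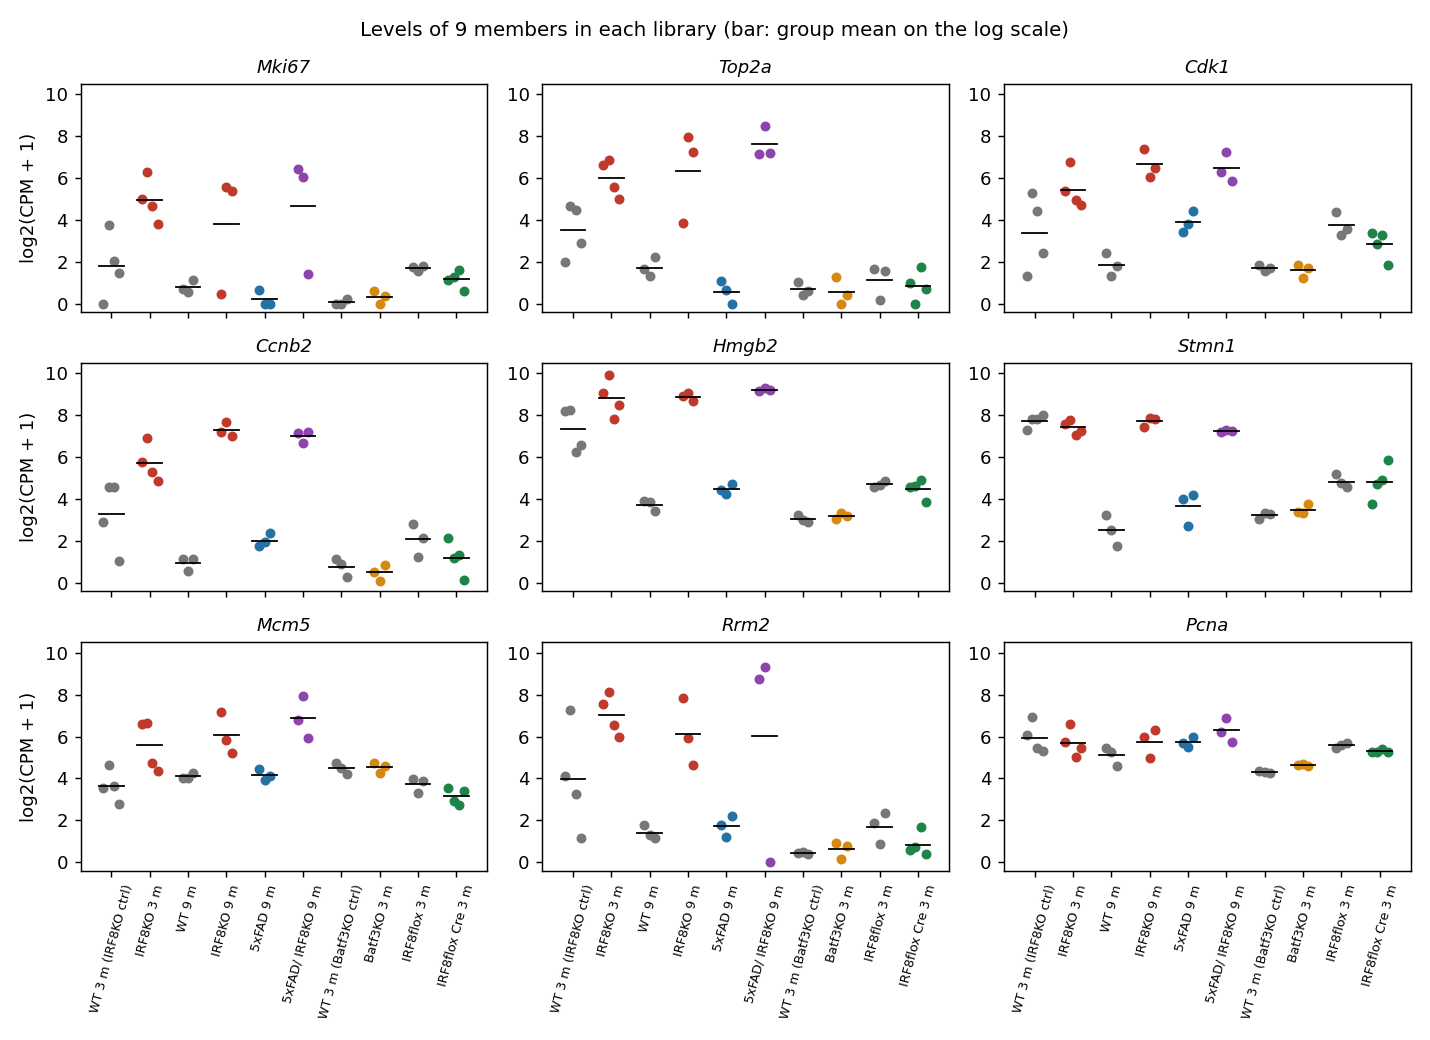
Level of 9 members in each library on the log2(CPM + 1) scale, by group, with bars at the mean of the log values. Ccnb2, Hmgb2 and Stmn1 form tight groups in 9-month IRF8KO, Mki67 and Rrm2 spread from near 0 to high values within the germline knockouts, and Pcna hardly separates the groups.

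The DNA replication genes behaved differently from the mitosis genes in the same libraries. Of the 11, 3 rose in 9-month IRF8KO: Mcm5 (16.1 ± 1.79 to 79.0 ± 58.3 CPM, adjusted p = 0.0124), Rrm1 (36.6 ± 8.37 to 121 ± 52.5, adjusted p = 0.018) and Rrm2 (1.71 ± 0.657 to 105 ± 111, adjusted p = 0.0359). Of all 14604 genes tested 19.6% were called higher, so the share of replication genes is near that of genes at large. The median log2 fold change of the 11 was 1.49, against 5.61 for the mitosis list. Rrm2, the regulated subunit of ribonucleotide reductase, had hardly any WT level, like the mitosis genes, whereas the Mcm genes had WT means of 16.1 to 58.3 CPM.

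A single library carried most of the replication signal. Mcm2, a helicase subunit, was at 128 CPM in IRF8KO replicate 1 and at 19.2 and 4.58 in the others, against 12.7, 18.9 and 23.1 in WT. Mcm6 was at 247, 21.5 and 13.4 CPM against 22.7, 19.4 and 26.7, and Mcm7 at 169, 16.3 and 16.0 against 16.6, 14.1 and 21.8. Mcm3 was at 156, 0.457 and 10.9 CPM against 64.2, 32.96 and 77.6, so that it was above WT in 1 knockout library and below it in the other 2. Mcm5 alone of the helicase genes had all 3 knockout libraries (145, 55.2 and 36.4 CPM) above WT (15.2, 15.0 and 18.2). Without IRF8KO replicate 1 none of the 11 replication genes rose, Mcm2, Mcm4, Mcm6, Mcm7, Gins2 and Tyms had negative fold changes that did not pass the test, and Mcm3 was lower by log2 -3.43 (adjusted p = 0.0235). None rose either without WT replicate 1 or without WT replicate 2, and 1 without WT replicate 3. Pcna, Tyms and Gins2 were not called with all libraries (log2 0.71 ± 0.44, 0.35 ± 0.68 and 1.08 ± 1.78). Pcna and Tyms, like Ccnb1 and Ccnb2, have same-name pseudogenes in the annotation and Gins2 overlaps Gse1, so their counts are less certain.

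Of the 6 further members, 3 rose in 9-month IRF8KO and 3 were not called, against 19.6% of all genes tested that were called higher. Hmgb2, a chromatin protein abundant in dividing cells, was at 13.8, 13.6 and 9.71 CPM in WT and 483, 529 and 412 in IRF8KO, and rose by log2 5.23 ± 0.26 (adjusted p = 8.01e-07). Its standard error was the smallest of the called members in this comparison. Stmn1, a microtubule-destabilizing protein of mitotic cells and neurons, went from 8.43, 4.85 and 2.43 to 175, 233 and 227 CPM (log2 5.19 ± 0.50, adjusted p = 1.91e-05). The 6 neuron marker genes summed to 2.43 to 3.58 CPM in the same WT libraries and to 604 to 2905 in IRF8KO, and their part in the Stmn1 level was not tested. Uhrf1, which maintains DNA methylation at replication forks, rose (log2 6.07 ± 1.46, adjusted p = 0.00906) with a wide spread of 158, 10.4 and 14.6 CPM. The S-phase entry cyclins Ccne1 and Ccne2 and the thymidine kinase Tk1 were not called, with log2 fold changes of 1.27 ± 2.04, 1.47 ± 1.39 and 2.16 ± 1.33. Ccne1 and Tk1 were at 0 in some IRF8KO libraries.

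The comparison of 5xFAD/IRF8KO with 5xFAD asked what loss of Irf8 does where amyloid is present. Here 28 of the 38 members rose and none fell, against 18% of all genes tested that were called higher. They were 20 of 21 mitosis genes, 5 of 11 replication genes (Mcm2, Mcm5, Mcm6, Rrm1 and Rrm2) and 3 further members (Hmgb2, Stmn1 and Uhrf1). Cenpe again missed the threshold (log2 4.41 ± 1.68, adjusted p = 0.0696). The median log2 fold change was 6.22 for mitosis genes and 2.43 for replication genes, against 0.24 for all genes. Libraries did not overlap for 29 members, against 25.4% of all genes tested that were higher in this way. With single libraries left out 23 to 31 members were called.

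Top2a was at 1.09, 0.564 and 0 CPM in 5xFAD and at 138, 354 and 146 in 5xFAD/IRF8KO (log2 8.17 ± 1.10, adjusted p = 0.000202). Kif11 was at 0.182, 0.564 and 1.03 CPM against 141, 199 and 49.6 (log2 8.13 ± 0.89). Both genes were low in every 5xFAD library and high in every 5xFAD/IRF8KO library. Bub1 rested on 3 reads in 5xFAD, with a ratio of 237 and an exact 95% interval from 81.0 to 1152, which covers counting error only. Mki67 was at 0.545, 0 and 0 CPM in 5xFAD and at 85.6, 65.7 and 1.66 in 5xFAD/IRF8KO, so its replicate 3 was again far below the others. Hmgb2 rose from 21.3 ± 3.77 to 600 ± 30.5 CPM and Stmn1 from 12.8 ± 6.31 to 152 ± 4.77, and both were tight among the 3 knockout libraries. Rrm2 was at 431, 629 and 0 CPM in 5xFAD/IRF8KO and passed the test although replicate 3 had no read (log2 7.24 ± 1.87, adjusted p = 0.0131). Mcm5 was at 110, 242 and 60.0 CPM against 21.1, 14.3 and 16.5, and Rrm1 at 179, 418 and 136 against 47.2, 22.2 and 31.0, with no overlap for either.

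The other 9-month comparisons called no member with edgeR. Between 5xFAD/IRF8KO and IRF8KO, 0 of 38 members were called (2 at an unadjusted p under 0.05, 0 with DESeq2), against 0.164% of all genes. The unadjusted threshold was passed by 1853 of all 14604 genes. Rrm1 and Tpx2 were the 2 members, with log2 1.01 ± 0.46 (adjusted p = 0.381) and 1.16 ± 0.53 (adjusted p = 0.388). Without IRF8KO replicate 1, Mcm6 was called higher in 5xFAD/IRF8KO. The interaction of 5xFAD with IRF8KO, which tests whether the IRF8KO effect differs in 5xFAD, called 0 members (6 at an unadjusted p under 0.05, 0 with DESeq2), against 0.438% of all genes. The unadjusted threshold was passed by 2146 of all 14604 genes. The largest departures among those 6 members were Tpx2 with log2 2.63 ± 0.90 (adjusted p = 0.193) and Cdk1 with -2.44 ± 0.78 (adjusted p = 0.165), and neither shows the effects to be alike.

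Amyloid alone, in 5xFAD against WT, also gave no member past the adjusted threshold in edgeR, against 1.99% of all genes (290 genes, and 2 to 102 when any 1 of the 6 libraries was left out). Among the 38 members 5 had an unadjusted p under 0.05, all with higher means in 5xFAD: Cdk1, Ccnb2, Birc5, Hmgb2 and Stmn1. Of all 14604 genes tested 1637 had such a p, so the share of members is near that of genes at large. Cdk1 was at 9.63, 12.8 and 20.7 CPM against 4.29, 1.45 and 2.43 in WT, and its groups did not overlap (log2 2.26 ± 0.59, adjusted p = 0.0816). Libraries did not overlap, with 5xFAD higher, for 9 of the 38 members and for 23.0% of all genes tested. Ccnb2 was at 2.36, 2.82 and 4.13 CPM against 1.23, 0.485 and 1.21 (log2 1.55 ± 0.46, adjusted p = 0.132). DESeq2 called 1 member, Cdk1, and a fit on only these 6 libraries called Cdk1 and Tk1. Mki67 and Top2a were not among the 5, with 0.545, 0 and 0 CPM of Mki67 in 5xFAD. IRF8KO against WT and 5xFAD/IRF8KO against 5xFAD have no library in common but were fitted in 1 model. The other comparisons of 9-month groups reuse the libraries of these comparisons. Values are therefore given side by side, and their likeness was not tested and is not a result.

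**Figure D3:**
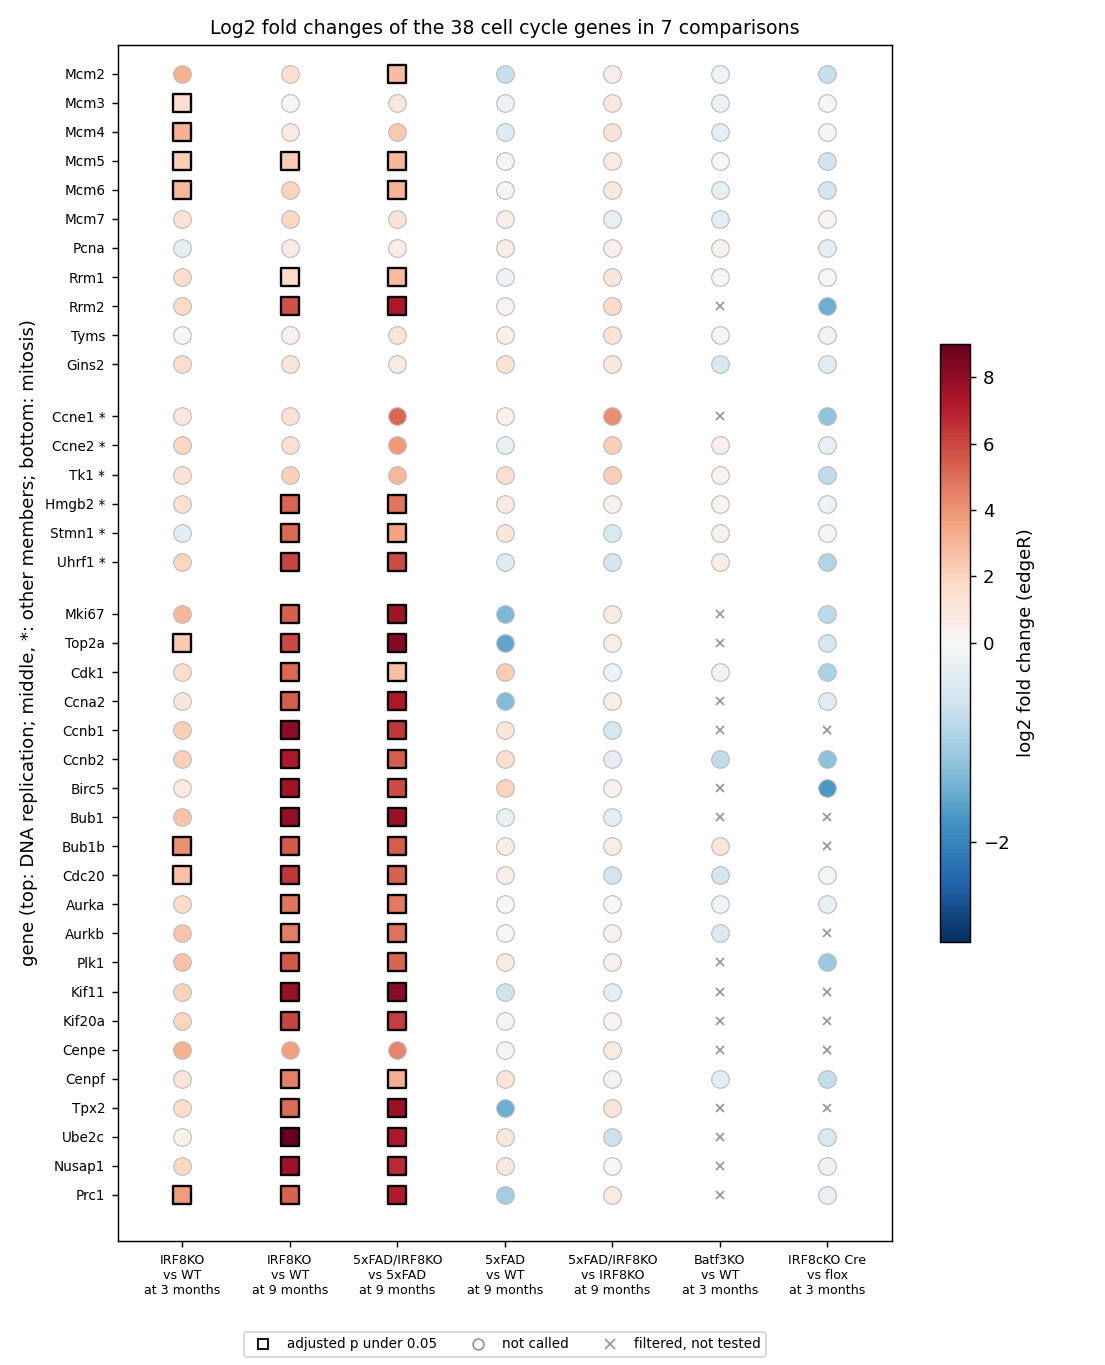
Log2 fold change (colour) of each of the 38 members in 7 comparisons. Squares mark members called at an adjusted p under 0.05, circles those not called and crosses those removed by the filter on low counts, and called members fill the mitosis rows of both 9-month comparisons of a germline knockout with its control.

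At 3 months fewer members passed. In IRF8KO against WT 8 of 38 rose and none fell, against 4.15% of all 13121 genes tested that were called higher. They were 4 replication genes (Mcm3, Mcm4, Mcm5 and Mcm6) and 4 mitosis genes (Top2a, Bub1b, Cdc20 and Prc1), and none of the 6 further members was called (2 at an unadjusted p under 0.05, 0 with DESeq2). The unadjusted threshold was passed by 3043 of all 13121 genes. The median log2 fold change was 1.65 for replication genes and 2.13 for mitosis genes, against -0.02 for all genes, so here the lists did not separate as they did at 9 months. Libraries did not overlap for 13 members, against 10.9% of all genes.

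Bub1b, a spindle checkpoint kinase, was at 0, 3.18, 1.98 and 0 CPM in the WT libraries and 29.0, 32.3, 27.2 and 14.3 in IRF8KO (log2 4.14 ± 1.00, adjusted p = 0.0277). Prc1 was at 0, 3.75, 5.12 and 0.133 CPM against 41.5, 54.0, 27.3 and 21.5 (log2 3.85 ± 0.91, adjusted p = 0.0258). Both separated the groups fully. Mcm4, a helicase subunit, was at 1.01, 8.43, 8.53 and 1.46 CPM against 78.2, 77.3, 23.4 and 9.97 (log2 3.20 ± 0.80, adjusted p = 0.0322). Mcm6 was at 6.54, 21.5, 3.30 and 17.5 CPM against 144, 164, 25.5 and 43.2 (log2 2.92 ± 0.70, adjusted p = 0.0274). In these genes IRF8KO replicates 1 and 2 were the high ones. Mki67 was at 0, 12.6, 3.03 and 1.72 CPM in WT and 30.4, 77.0, 23.9 and 12.9 in IRF8KO, with no overlap, and missed the threshold (log2 2.97 ± 0.91, adjusted p = 0.0651).

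WT libraries of this experiment already held many of the same transcripts. Rrm2 was at 16.6, 155, 8.70 and 1.19 CPM in WT, and WT replicate 2 exceeded 2 of the 4 IRF8KO libraries (188, 278, 91.6 and 61.9 CPM). Ube2c was at 131, 163, 86.4 and 18.4 CPM in WT and 124, 281, 47.4 and 53.5 in IRF8KO, and Stmn1 at 154, 224, 224 and 255 against 193, 216, 131 and 153. Neither was called. Hmgb2 was at 299, 303, 74.3 and 95.3 CPM against 534, 984, 227 and 358 (log2 1.45 ± 0.55, adjusted p = 0.13). Pcna was at 66.4, 120, 42.6 and 39.1 CPM against 52.9, 94.9, 31.4 and 42.2, and its groups overlapped throughout.

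The 3-month count depends on single libraries. Without IRF8KO replicate 1 or without IRF8KO replicate 2, 0 of the 38 members were called by edgeR. It was 3 without IRF8KO replicate 3, 3 without WT replicate 1 and 4 without WT replicate 4, and 12 without WT replicate 2. DESeq2 called 17, and no call was kept in every one of the 8 fits that left out 1 library.

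The difference between the IRF8KO effects at the 2 ages was tested directly. For 13 of the 38 members the effect was larger at 9 than at 3 months, against 18% of all 15512 genes, and for none was it smaller. They were 11 mitosis genes (Ube2c, Birc5, Ccnb1, Kif11, Nusap1, Ccnb2, Ccna2, Kif20a, Cdc20, Cdk1 and Top2a) with Hmgb2 and Stmn1. Ube2c led with a difference of log2 8.73 ± 1.24 (adjusted p = 9e-05), followed by Birc5 with 6.82 ± 0.95 (adjusted p = 7.43e-05) and Ccnb1 with 5.99 ± 1.10 (adjusted p = 0.000879). No replication gene was called (1, Rrm2, at an unadjusted p under 0.05, which was also the only one that DESeq2 called). The unadjusted threshold was passed by 5704 of all 15512 genes. The median difference was 0.15 for the replication list against 3.64 for the mitosis list and 0.40 for all genes. As a ratio of the 2 ages, the mitosis sums behind this differ more between the WT groups (109 to 544 CPM at 3 months, 28.7 to 49.6 at 9 months) than between the IRF8KO groups (473 to 1790 and 1533 to 2265 CPM), while in CPM they differ more between the IRF8KO groups. The ages were separate experiments with separate controls, so age and experiment cannot be told apart. Without 9-month WT replicate 1, 8 members were called.

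**Figure D4:**
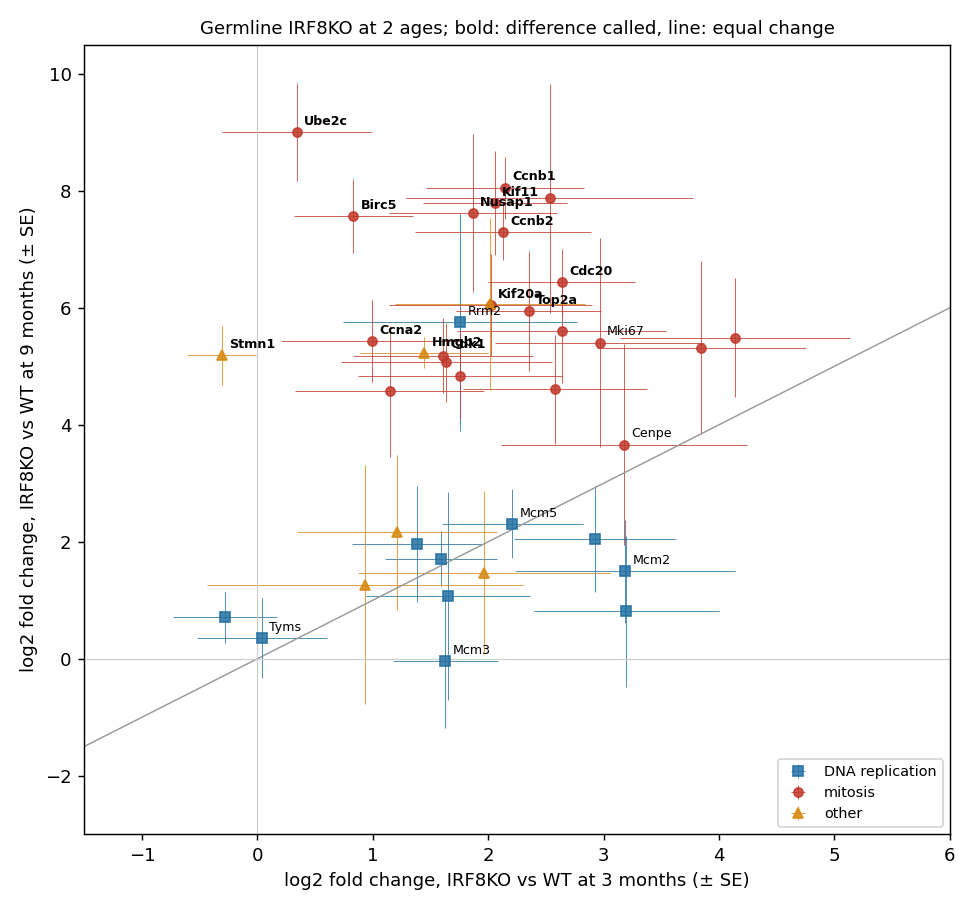
Log2 fold change (with SE) of each member in IRF8KO against WT at 3 months (horizontal) and at 9 months (vertical), with a line of equal change. Mitosis genes lie above the line, replication genes scatter around and below it apart from Rrm2, and bold names mark the 13 members whose difference was called.

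Markers of immature granulocytes, and those of mature neutrophils, were high in the same knockout groups. Early-granule genes, which are made mainly in immature granulocytes (Elane, Mpo, Prtn3, Ctsg and Ms4a3), summed to 323 to 7962 CPM in 3-month IRF8KO, 571 to 3995 in 9-month IRF8KO and 2749 to 8002 in 5xFAD/IRF8KO, and to at most 1.14 CPM in every library outside the germline experiment at 3 months and the 9-month knockouts. All 5 genes were detected in each of the 3 knockout groups, and the lowest group mean was that of Ctsg in 9-month IRF8KO, 43.8 CPM. In the 3-month WT controls the 5 genes together made 0, 6.25, 6.95 and 3.33 CPM, and Elane was at 0 in all 4 libraries. Late-granule genes, made somewhat later in the same lineage, summed to 31388 to 83498 CPM in the knockout libraries and to 3616 to 23680 in those WT controls. Genes of mature neutrophils (Cxcr2, Mmp9, Retnlg, S100a8, S100a9 and Csf3r) summed to 34628 to 81018 CPM in the knockout libraries. They summed to 5246 to 42461 CPM in those WT controls and to at most 1104 in the libraries of the other groups. Red cell genes overlapped between these WT controls (31005 to 103284 CPM) and the knockouts (9079 to 158174). The part of immature granulocytes in the rise of the cell cycle genes was not tested.

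The sums can also be set side by side for single libraries. In each of the 3 knockout groups the library with the highest early-granule sum also had the highest replication sum: 3-month IRF8KO replicate 2 (7962 and 1129 CPM), 9-month IRF8KO replicate 1 (3995 and 1347) and 5xFAD/IRF8KO replicate 2 (8002 and 1868). The highest mitosis sum fell on the same library in 2 of the 3 groups. The exception was 9-month IRF8KO, with 1533, 1993 and 2265 CPM in replicates 1 to 3 beside early-granule sums of 3995, 929 and 571. Red cell sums there were 23871, 158174 and 67168 CPM in replicates 1 to 3. In 5xFAD/IRF8KO they were 41836, 14144 and 90372 CPM beside mitosis sums of 2048, 2227 and 1410. In 3-month IRF8KO they were 90416, 78974, 9079 and 23308 CPM beside mitosis sums of 965, 1790, 632 and 473. In the 3-month WT controls mitosis transcripts stood at 109 to 544 CPM with the early-granule genes at or near 0. Precursor B cell genes were also present there, at 281 to 1133 CPM, against 170 to 353 in 3-month IRF8KO and 10.04 to 915 in 9-month IRF8KO. Stem and progenitor genes were lower in the 9-month knockouts. Of 7 genes, 3 to 5 were detected in each 9-month library, with sums of 507 to 545 CPM in WT and 589 to 698 in 5xFAD against 118 to 156 in IRF8KO and 167 to 213 in 5xFAD/IRF8KO. Most of the sum was Cd34 (515 ± 18.9 CPM in WT and 86.7 ± 20.8 in IRF8KO). Kit, singled out after its values were seen, had no read in 9-month WT and 5xFAD and averaged 47.0 ± 40.1 CPM in IRF8KO and 72.6 ± 40.0 in 5xFAD/IRF8KO. The parts of red cell and B cell precursors in the cell cycle sums were not tested.

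Markers of further brain and immune cells were also higher in the 9-month knockouts. Oligodendrocyte genes summed to 237 to 273 CPM per library in WT and to 7160.2 to 11134 in IRF8KO, and astrocyte genes to 12.5 to 20.9 and to 2075 to 2606. Monocyte genes summed to 3.30 to 8.36 CPM in WT and to 677 to 1486 in IRF8KO, border macrophage genes to 8.26 to 13.1 and to 548 to 804, and T and NK cell genes to 0 and to 33.9 to 129. Oligodendrocyte and neural precursor genes summed to 0 to 1.65 CPM and to 26.6 to 74.8. These 6 sums and that of the neuron genes were likewise higher in every 5xFAD/IRF8KO library than in every 5xFAD library. Endothelial genes summed to 18.2 to 44.4 CPM in IRF8KO, below the 137 to 243 of WT. At 3 months oligodendrocyte sums (5477 to 63172 CPM in WT, 3215 to 37009.7 in IRF8KO) and neuron sums (321 to 635 and 50.1 to 338) overlapped, whereas monocyte sums (208 to 403 and 687 to 1531) and border macrophage sums (28.6 to 167 and 805 to 1289.7) did not. The part of these cells in the cell cycle results was not tested.

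**Figure D5:**
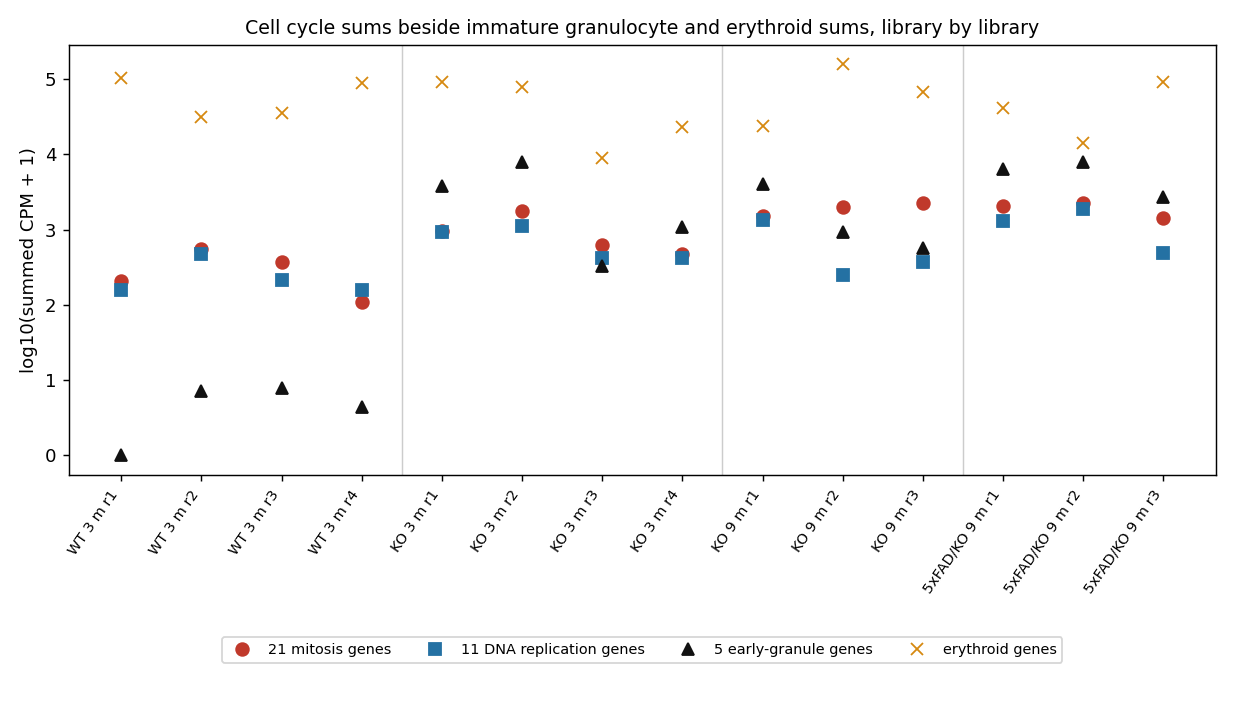
Summed CPM of mitosis, replication, early-granule neutrophil and red cell (erythroid) genes on the log10(CPM + 1) scale in the 14 libraries of germline knockouts (KO) and their 3-month WT controls, where r is the replicate. Early-granule sums are at most 6.95 CPM in WT and at least 323 in every knockout, and mitosis and replication sums part in 9-month IRF8KO replicates 2 and 3.

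No cell cycle gene was called after deletion of Irf8 from postnatal day 12. In Cre against flox 30 members passed the filter on low counts and 0 were called (2 at an unadjusted p under 0.05, 0 with DESeq2), against 0% of 15512 genes. The unadjusted threshold was passed by 1407 of these 15512 genes. The means of 25 of the 30 members were lower in Cre, and the median log2 fold change was -0.53 for the 13 mitosis genes tested, -0.30 for the 11 replication genes and 0.01 for all genes. Cdk1 was at 19.7, 8.55 and 10.9 CPM in flox and at 9.33, 6.25, 8.83 and 2.64 in Cre (log2 -0.95 ± 0.40, adjusted p = 0.483). Ccne1 was at 2.15, 2.39 and 2.16 CPM against 0.837, 0.742, 0.697 and 1.53 (log2 -1.21 ± 0.48, adjusted p = 0.453). Mki67 was at 2.39, 1.94 and 2.52 CPM in flox and 1.20, 1.38, 2.09 and 0.508 in Cre, and Top2a at 2.15, 0.114 and 1.92 against 0.957, 0, 2.32 and 0.61. Without Cre replicate 1, the library with Irf8 at the flox level, 2 of 30 members, Tk1 and Birc5, were called lower in Cre, against 2.5% of all 15264 genes tested in that fit. Tk1 was at 25.8, 11.97 and 21.5 CPM in flox and 22.8, 6.68, 11.7 and 5.39 in Cre, where replicate 1 was the highest. Early-granule genes summed to at most 1.14 CPM in these 7 libraries and red cell genes to 419 to 1876.

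The effect of the conditional deletion was also set against that of the germline deletion at 3 months in one model. It was lower for 4 members, Mcm6 (log2 -3.43 ± 0.87, adjusted p = 0.0249), Bub1b (-5.19 ± 1.38, adjusted p = 0.0301), Mcm5 (-2.73 ± 0.76, adjusted p = 0.0378) and Prc1 (-3.93 ± 1.14, adjusted p = 0.0446), against 2.68% of 17361 genes. For 36 of the 38 members the difference was negative, with a median of -2.31 against 0.27 for all genes. These 4 calls are fragile. None was left without IRF8KO replicate 1, flox replicate 1, flox replicate 3, Cre replicate 2 or Cre replicate 3. Between 1 and 2 were left without IRF8KO replicate 2, flox replicate 2 or Cre replicate 4, while 7 were called without WT replicate 3 and 11 without WT replicate 2 or with DESeq2. The 2 experiments differ in sort and age at deletion too, which cannot be told apart from the extent of the deletion.

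No member was called by edgeR in Batf3KO. Of the 38 members 22 passed the filter, which left 7 of the 21 mitosis genes, and 0 were called (3 at an unadjusted p under 0.05, 1 with DESeq2), against 3.83% of 13128 genes. The unadjusted threshold was passed by 2415 of these 13128 genes. Pcna was at 19.6, 18.7 and 18.4 CPM in WT and 24.2, 24.5 and 22.9 in Batf3KO (log2 0.34 ± 0.13, adjusted p = 0.201). Mcm7, whose gene overlaps Ap4m1 and Cops6, was at 32.9, 29.6 and 30.4 CPM against 23.5, 23.3 and 27.6 (log2 -0.32 ± 0.13, adjusted p = 0.212). Both separated the libraries by small amounts that did not pass. Of the 22 members tested, 3 lay higher and 1 lower without overlap, against 11.8% and 12.2% of all genes tested. Mcm3, the helicase gene with the highest level here, was at 108, 98.3 and 78.1 CPM against 88.5, 77.8 and 89.1. Mki67 had 0, 0 and 0.151 CPM in WT and 0.523, 0 and 0.277 in Batf3KO. The member that DESeq2 called lower was Tpx2, which the edgeR filter removed and which had 0.743, 1.02 and 0.529 CPM in WT and none in Batf3KO. Early-granule genes were at 0 in these 6 libraries.

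Other genes of the same pathways, listed by function and with no member among them, were counted in the same fits. At 9 months 29 of 36 further mitosis genes rose in IRF8KO (19.6% of all genes) and 28 in 5xFAD/IRF8KO against 5xFAD (18% of all genes), and none fell. Kif22, a chromosome motor, rose from 0.579 ± 0.511 to 117 ± 62.1 CPM in IRF8KO (log2 7.31 ± 0.75), and Kif23, a motor of cytokinesis, from 0.384 ± 0.338 to 70.2 ± 12.1 in 5xFAD/IRF8KO (log2 7.42 ± 1.04). Cdc25c, the phosphatase that activates Cdk1, had no read in 5xFAD and rose in 5xFAD/IRF8KO to 14.9 ± 12.9 CPM, at least 92.1-fold above the limit that 3 reads over the group set. Of 27 further replication genes tested, 3 rose in IRF8KO (Cdc45, Gmnn and Dut) and 4 in 5xFAD/IRF8KO, among them Gins3, Prim1 and Chaf1a, and both shares lie below the 19.6% and 18% of all genes. Cdc45, a helicase partner, rose from 2.49 ± 0.104 to 26.5 ± 11.8 CPM.

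Genes that control the cycle were called in both directions. Of 35 tested at 9 months, 7 rose and 2 fell in IRF8KO, against 19.6% of all genes called higher and 8.68% called lower, so the share that rose is that of genes at large. In 5xFAD/IRF8KO against 5xFAD 9 rose and 1 fell, against 18% and 9.72% of all genes. Ccnd2, a D-type cyclin of the start of the cycle, rose from 1.03 ± 0.157 to 77.5 ± 19.7 CPM in IRF8KO and from 0.433 ± 0.389 to 46.7 ± 12.1 in 5xFAD/IRF8KO. Cdc25b, a phosphatase that activates Cdk1, rose by log2 4.68 ± 0.62 in IRF8KO. Ccng2, a cyclin linked to cell cycle arrest, fell by 2.21 on the log2 scale in IRF8KO (564 ± 55.9 to 121 ± 49.3 CPM) and by 2.25 in 5xFAD/IRF8KO. Myc, the growth regulator, fell in IRF8KO from 26.7 ± 4.86 to 0.406 ± 0.704 CPM (adjusted p = 0.0265). In 5xFAD/IRF8KO against 5xFAD Ccng2 was the only control gene called lower, and Myc was not. The interaction for Myc was log2 4.95 ± 2.18 (adjusted p = 0.319). At 3 months 8 of 35 mitosis, 1 of 27 replication and 2 of 33 control genes rose in IRF8KO, against 4.15% of all genes, which the replication and control shares are near. The control genes were Cdk2 (12.9 ± 5.49 to 59.3 ± 12.2 CPM) and Rb1 (9.65 ± 3.63 to 37.9 ± 8.44). None of these genes was called in Cre against flox. In Batf3KO Myc (31.3 ± 8.29 to 17.0 ± 2.41 CPM) and Foxm1 (6.80 ± 1.24 to 2.82 ± 0.672) fell, as did Espl1, the separase gene (76.2 ± 8.01 to 54.9 ± 5.09), and Btg1, an antiproliferative gene, rose (192 ± 13.9 to 245 ± 4.01), each with n = 3 a group. These are 1 of 18 mitosis and 3 of 32 control genes tested, against 3.83% of all genes called in either direction.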

How the data were processed

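RNA of sorted mouse microglia was measured in 33 libraries of 10 groups. The deposited files hold raw read counts per gene for each library. Per the submitters' processing notes, STAR 2.5.2b, Picard 2.17.11, Subread and featureCounts were used with the mm10 build. The order and settings of those steps are not known here. The counts that ignore strand were used. The 4 summary lines of each file name no gene and were left out, and 47.3% to 78.6% of a library's reads were in genes. These reads in genes numbered 605376 to 18357762 per library. Per the labels' protocols, the libraries were made with SMART-Seq v4 and Nextera XT, which carry no molecular identifiers, so intervals and floors cover counting error only. Gene identifiers were named from GENCODE M21, where 54079 of 54146 were found.

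Genes were kept by filterByExpr of edgeR 4.0.16 (minimum count 10, minimum total 15, in R 4.3.3), libraries were scaled by TMM, and groups were compared by edgeR's quasi-likelihood test with Benjamini-Hochberg adjustment over all genes tested, at an adjusted p under 0.05. The 12 libraries of 9 months were fitted in 1 model, and each other comparison on its own groups. The standard error is the fold change on the log2 scale divided by the square root of F. Levels are CPM with TMM, and list sums are CPM without TMM. The procedure was tested on simulated data. The alternatives were DESeq2 1.42.0, its type of size factors in edgeR, no filter, a replicate block, 1 fit over all 33 libraries, only the 2 groups compared, and leaving out each library in turn. List sums were also taken over a total without erythroid and neutrophil marker counts.

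The members and all gene lists were chosen with earlier results of these data known. By rule, values per library are given for Mki67, Top2a, Cdk1, Ccnb2, Mcm5, Pcna, Rrm2, Hmgb2 and Stmn1, and for up to 3 further members per comparison and direction with the largest change among those called and at 5 CPM or more in the higher group. Pathway genes were named by the same rule per list, up to 3 per direction. Values per library of other members were added after their values were seen. Mcm7, Gins2, Ccna2, Cdc20, Kif20a, Ube2c, Nusap1, Prc1, Ccne2 and Tk1 overlap another gene, and Pcna, Tyms, Ccnb1 and Ccnb2 have same-name pseudogenes, so their counts are less certain. Replicate numbers were tested as pairs by the correlation of same-numbered libraries' deviations from their group means, where every pair over 0.1 counts as pairing. It ran from -0.05 to 0.17 for the germline knockout at 3 months, from -0.15 to -0.03 for Batf3 and from -0.04 to 0.17 for the conditional knockout, so the numbers were not taken to pair the libraries.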

Additional observations from a re-analysis of the deposited data

Results flagged for a closer look

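In each group of 4 libraries, the gap between the highest or lowest library and its nearest neighbour was divided by the group's range and compared with Dixon's critical value of 0.829. Of 123 groups of values, 10 held an outlying library. The rate of about 1 in 20 behind this critical value holds for independent, normally distributed values. CPM values near 0 and genes read in the same libraries do not meet this, so no conclusion is drawn from the count. Each outlying library was the highest of its group. In the wild-type mice of the germline comparison at 3 months, Rrm2, the small subunit of ribonucleotide reductase, was at 155 CPM in 1 library against 16.6 in the next. In the same group, 1 library lay apart for Ccne1 (14.2 against 2.37 CPM), for Cdc20 (20.4 against 7.55 CPM) and for Cenpe (5.73 against 0.843 CPM). In the germline knockout at 3 months, Cdc20, an activator of the anaphase-promoting complex, was at 136 CPM in 1 library against 36.5 in the next. The kinetochore gene Cenpf was at 51.1 against 15.8 CPM there. In the Cre-positive group of the conditional knockout, all 4 outlying values were low. They were 7.18 against 2.34 CPM for Cdc20, 3.25 against 0.957 CPM for Aurkb, 1.53 against 0.837 CPM for Ccne1, and 0.465 CPM for Bub1 with 0 in the others.

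The effect of germline Irf8 loss was compared between 9 and 3 months as a difference of log2 fold changes, and 13 members were called, all higher at 9 months. The difference was 8.73 for Ube2c, 6.82 for Birc5, 5.99 for Ccnb1, 5.81 for Kif11, 5.79 for Nusap1, 5.56 for Stmn1 and 5.22 for Ccnb2. It was 4.48 for Ccna2, 4.07 for Kif20a, 3.88 for Cdc20, 3.86 for Hmgb2 and 3.64 for both Cdk1 and Top2a. Age and the separate sets of controls cannot be told apart in this difference. The conditional knockout's effect minus that of the germline knockout at 3 months was called for 4 members, each lower in the conditional comparison. It was -5.19 for Bub1b, a spindle checkpoint kinase, -3.93 for Prc1, a bundler of midzone microtubules, and -3.43 for Mcm6 and -2.73 for Mcm5, subunits of the replicative helicase.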

How the results depend on the processing

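The counts of members called moved with the setting as follows. For the germline knockout at 3 months the 8 calls became 17 by DESeq2, 23 with no filter, 16 with the replicate block and 16 with all 33 libraries in 1 fit, and 0 to 12 when 1 library was left out. For 5xFAD against wild type the 0 calls became 1 by DESeq2 and 2 in a fit of only the 2 groups. For Batf3 they became 1 by DESeq2 and 1 with no filter, and for the conditional knockout 1 with no filter. For the conditional against the germline effect the 4 calls became 11 by DESeq2, 11 with no filter, 8 with all 33 libraries and 1 with the replicate block. Leaving out 1 library gave 19 to 25 calls for the germline knockout at 9 months, 23 to 31 for 5xFAD/IRF8KO against 5xFAD, 0 to 1 for 5xFAD/IRF8KO against IRF8KO, 0 to 1 for Batf3, 0 to 2 for the conditional knockout, 8 to 16 for the difference by age and 0 to 11 for the conditional against the germline effect. The cause of these changes was not tested.

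The replicate numbers were not taken to pair the libraries. With the replicate block, 24 members were called for the germline knockout at 9 months, 27 for 5xFAD/IRF8KO against 5xFAD and 11 for the difference by age.

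Over single members and named genes, 852 values kept direction and side of the threshold under the settings that keep all libraries, 59 passed it anew, 30 no longer passed and 6 turned sign. Those 6 were Mcm3 at 9 months (0.046 in a fit of only the 2 groups, 0.14 with all 33 libraries) and Tyms at 3 months (-0.018 with DESeq2-type size factors, -0.0064 by DESeq2, -0.028 with no filter, -0.17 with the replicate block). With 1 library left out, 19 values turned sign, none of a member called in that comparison. In the germline knockout at 3 months the log2 fold changes ranged from -0.38 to 2.65 for Ccne1, from -0.70 to 0.17 for Pcna, from -0.67 to 0.31 for Tyms and from -0.46 to 0.69 for Ube2c. At 9 months they ranged from -6.02 to 1.75 for Ccne1, from -0.68 to 4.14 for Cenpe, from -0.53 to 1.54 for Gins2, from -0.73 to 1.91 for Mcm2, from -3.43 to 0.41 for Mcm3, from -0.19 to 1.25 for Mcm4, from -0.50 to 2.45 for Mcm6, from -0.21 to 2.30 for Mcm7 and from -0.40 to 0.69 for Tyms. In 5xFAD/IRF8KO against 5xFAD they ranged from -0.27 to 1.31 for Gins2 and from -0.28 to 1.70 for Mcm7.

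Over all genes, the calls moved by over 1.5 times as well. The germline knockout gave 970 calls at 3 months (2583 by DESeq2, 1655 with no filter, 3300 with all 33 libraries) and 4136 at 9 months (6836 with all 33). 5xFAD against wild type gave 290 (803 by DESeq2, 806 with all 33, 163 with no filter, 105 with the block, 4546 in a fit of only the 2 groups). 5xFAD/IRF8KO gave 4054 against 5xFAD (6783 with all 33) and 24 against IRF8KO (0 to 1452 over the settings). The interaction gave 64 (9 to 1082), Batf3 503 (10 to 998), the conditional knockout 0 (0 to 618), the difference by age 3717 (6342 with all 33) and the conditional against the germline effect 1223 (293 to 2281). With 1 library left out, the counts over all genes were 305 to 1128 for the germline knockout at 3 months and 2266 to 4126 at 9 months, 2 to 102 for 5xFAD against wild type, 2325 to 4055 for 5xFAD/IRF8KO against 5xFAD and 38 to 140 against IRF8KO. They were 2 to 189 for the interaction, 219 to 596 for Batf3, 0 to 952 for the conditional knockout, 2191 to 4053 for the difference by age and 471 to 1780 for the conditional against the germline effect.

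With the total taken without erythroid and neutrophil marker counts, mean sums rose in the groups with many such counts. In the germline knockout at 9 months the mean went from 1930 to 2336 CPM for mitosis genes and from 3301 to 3955 for all members. The mitosis mean went from 1895 to 2288 CPM in 5xFAD/IRF8KO, from 965 to 1201 in 3-month IRF8KO and from 309 to 338 in its WT controls. In 9-month WT it was 36.7 CPM with either total. The shallowest library held 605376 reads in genes, so low members there rest on few reads, and groups of 3 or 4 libraries limit every test.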
